A study of Mus musculus with 66 samples.

Results

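Enriched housing was followed by both gain and loss of the histone variant H3.3 at 1196 short regions of the genome in NeuN-negative nuclei of the mouse hippocampus. These are all regions of the deposited list that compares H3.3 chromatin immunoprecipitation (ChIP) in NeuN-negative nuclei of mice under Environmental Enrichment with Normally Housed mice, out of 57678 regions in the 7 lists of the series. Of them, 846 were gained, that is, higher in enriched than in normally housed mice, and 350 were lost. Gained regions were 70.7% of the list (95% exact Clopper-Pearson interval 68.1 to 73.3%, which covers counting of regions only).

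Both groups were C57bl/6 mice of about 7 weeks. Each group had 3 H3.3 libraries, made with the Millipore 09-838 antibody, and 1 input library, which is chromatin sequenced without immunoprecipitation. The whole series has 66 samples, and the NeuN-negative nuclei gave 8 of them. The housing period of 4 weeks is stated for the NeuN-positive nuclei, and the labels do not repeat it for the NeuN-negative ones. The protocol describes the sort of NeuN-positive nuclei, and those used here are labelled NeuN-negative. Such nuclei come from astrocytes, oligodendrocytes and their precursors, microglia, cells of vessels and any neuron that NeuN does not mark. The list is named for astrocytes, while the labels name only NeuN-negative cells, and a list of changed regions cannot show which cell types were present. A mean over such a mixture cannot tell a change within 1 cell type from a change in the share of that type. The protocol speaks of biological duplicates for work in animals and the labels give 3 libraries per group, without saying that they came from separate animals, so the spread between them may be technical. The normally housed libraries were all read in lane 1, the enriched ones in lane 2 and both inputs in lane 3, so lane and housing cannot be told apart.

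H3.3 is made throughout the cell cycle and is put into chromatin without DNA replication, mostly at active promoters, enhancers and transcribed gene bodies. In cells that no longer divide, replacement of older H3 by H3.3 is the main route by which new histone H3 enters chromatin. Glial cells of the hippocampus clear transmitters and ions from the synapse, wrap axons in myelin, prune synapses and supply growth factors, and they are known to respond to the running, toys and company of an enriched cage. In what follows a gene is said to rise or fall where H3.3 did so at its region. Reads at a region in an H3.3 ChIP library measure how often H3.3 was recovered there, not how much the nearby gene was transcribed.

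The regions were short, and the sequences of 8 of them are given to show what kind of DNA they hold. They were picked, after their values were known, from the named regions that hold a match to one of 7 motifs searched, so as to cover glial, neurotrophin, synaptic and circadian genes among the lost and complement, RNA-binding, Ras and receptor genes among the gained. Each is the plus strand of mouse build mm9, 5′ to 3′, and capitals mark matches on either strand to the AP-1 site TGANTCA or to an E-box, CAGCTG or CACGTG. The first 4 were lost in enriched mice and the other 4 were gained.
Nfia, chr4:97672321-97672520: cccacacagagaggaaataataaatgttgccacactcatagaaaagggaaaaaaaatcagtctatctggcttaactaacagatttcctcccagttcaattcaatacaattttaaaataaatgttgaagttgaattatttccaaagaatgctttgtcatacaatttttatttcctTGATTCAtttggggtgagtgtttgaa
Ntrk2, chr13:58955701-58955900: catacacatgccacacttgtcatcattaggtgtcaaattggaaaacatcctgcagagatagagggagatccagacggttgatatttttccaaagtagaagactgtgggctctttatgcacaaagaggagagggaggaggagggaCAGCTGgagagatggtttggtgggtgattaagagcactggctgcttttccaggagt
Dlg2, chr7:99418461-99418700: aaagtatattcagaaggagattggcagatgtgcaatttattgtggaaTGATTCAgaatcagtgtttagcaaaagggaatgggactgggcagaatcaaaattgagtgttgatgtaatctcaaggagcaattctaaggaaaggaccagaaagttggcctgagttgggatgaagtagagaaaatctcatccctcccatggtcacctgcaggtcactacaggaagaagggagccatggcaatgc
Rora, chr9:68752841-68753040: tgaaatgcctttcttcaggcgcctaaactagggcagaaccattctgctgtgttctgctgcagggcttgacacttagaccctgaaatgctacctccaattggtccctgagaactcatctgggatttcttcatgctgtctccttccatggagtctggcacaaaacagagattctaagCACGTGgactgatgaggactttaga
C3, chr17:57341101-57341320: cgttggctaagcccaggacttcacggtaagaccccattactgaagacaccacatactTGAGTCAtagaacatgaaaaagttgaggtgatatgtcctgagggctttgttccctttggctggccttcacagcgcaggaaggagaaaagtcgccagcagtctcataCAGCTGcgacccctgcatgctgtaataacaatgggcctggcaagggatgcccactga
Rbm47, chr5:66534341-66534540: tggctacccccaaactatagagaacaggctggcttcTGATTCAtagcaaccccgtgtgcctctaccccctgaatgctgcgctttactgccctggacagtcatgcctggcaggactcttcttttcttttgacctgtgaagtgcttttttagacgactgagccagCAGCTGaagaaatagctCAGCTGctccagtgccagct
Sos2, chr12:70731961-70732160: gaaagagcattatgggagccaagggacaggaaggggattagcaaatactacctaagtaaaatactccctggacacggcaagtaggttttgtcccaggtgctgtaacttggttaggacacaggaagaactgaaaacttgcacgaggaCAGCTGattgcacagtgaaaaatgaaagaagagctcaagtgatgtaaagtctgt
Gpr39, chr1:127612261-127612460: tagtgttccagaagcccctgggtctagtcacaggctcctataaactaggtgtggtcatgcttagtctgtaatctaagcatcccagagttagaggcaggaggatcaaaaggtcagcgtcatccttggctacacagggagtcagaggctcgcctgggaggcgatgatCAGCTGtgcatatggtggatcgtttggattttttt
All lie in introns of the named genes in the gencode vM1 annotation, except the C3 region, which lies 2187 bp past the 3′ end of the gene. Nfia encodes nuclear factor I/A, a factor that drives astrocyte formation, and its region holds 31.5% G and C bases and no CpG. The C3 region, at the gene of the central complement protein, holds 51.4% and 5 CpG, with 1 AP-1 match and 1 CAGCTG.

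Matches were about as frequent as in the genome at large for the AP-1 site. TGANTCA was found in the central 200 bp of 6.15% of gained and 6.03% of lost nuclear regions, against 5.93% of 12791934 tiles of 200 bp that cover the genome. The E-box CAGCTG was found in 10.2% of gained and 9.20% of lost regions, against 7.22% of tiles. For CACGTG the shares were 2.25% and 3.45%, against 1.95%. No region held the cAMP response element TGACGTCA, the full NFI palindrome or the glucocorticoid response element, which 0.107%, 0.0114% and 0.00467% of tiles hold. The core of the CTCF site was found in 1 lost region. These matches describe letters in a window and not binding.

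Counts of H3.3 were low at the nuclear regions, and in the typical one the lower group was close to 0. In gained nuclear regions the median of the group means was 0.920 normalised counts in normally housed and 6.85 in enriched mice, and the highest enriched mean was 14.2. In lost nuclear regions the median was 6.94 in normally housed and 0.567 in enriched mice. The counts are per region and not per length. The largest finite change in the authors' deposited table was 5.48 on the log2 scale and the smallest 1.59, and smaller changes are not in the list. The median log2 fold change in the authors' deposited table was 2.88 for gained and -3.49 for lost nuclear regions.

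**Figure D1:**
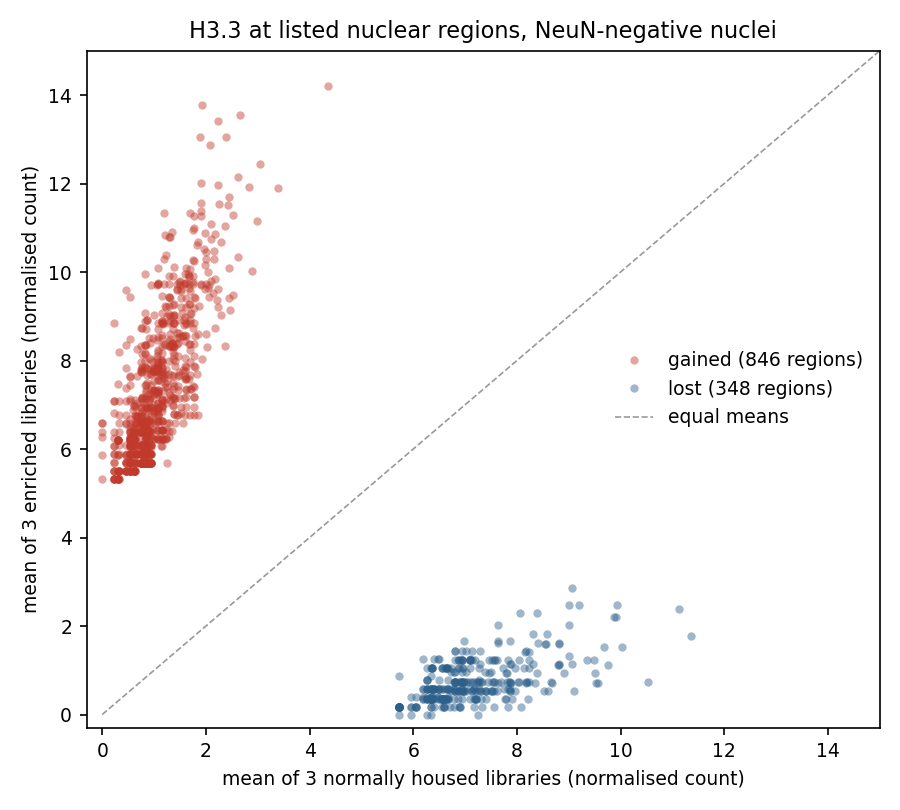
Mean normalised count of H3.3 in 3 normally housed libraries (horizontal axis) and in 3 enriched libraries (vertical axis) for each listed nuclear region, 846 gained in red and 348 lost in blue. Gained regions lie between 5.33 and 14.2 on the enriched axis and lost regions between 5.73 and 11.4 on the normally housed axis, with the other group low.

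The 2 groups of 3 values did not overlap in any region, which is 100% of the list, so non-overlap was a property of being listed. The same is true of the authors' adjusted p, which was 0.05 or less in 1194 of the 1196 regions (99.8%), 844 of them gained (70.6%) and 350 lost (29.3%). The exceptions were Col24a1, a collagen gene, at 0.102 and an intergenic region of chromosome 9 at 0.0538. Only 97 different adjusted p-values in the authors' deposited table served all 1196 regions, and 454 regions shared the value 0.00776. The adjusted p therefore hardly ranks the regions, and what follows is ordered by the roles of the genes.

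Reads behind these values were few and uneven between libraries. A single read was worth 1.16, 2.64 and 0.542 normalised counts in the enriched values and 0.948, 0.676 and 0.904 in the normally housed values, in the order in which the table packs them without library names. In gained regions the median number of reads was 6 in the first, 3 in the second and 11 in the third enriched library, and 1 in each normally housed library. In lost regions it was 7, 10 and 8 in the normally housed libraries and 0, 0 and 2 in the enriched. The second enriched library was thus the thinnest, and in 396 of the 846 gained regions (46.8%) its value of 5.28 stood for 2 reads. Among regions with at least 3 reads in every library of the higher group, 450 were gained and 350 lost, a share of 56.2% gained. Only gained regions could fail this limit. Lost nuclear regions had at least 6, 9 and 6 reads in the normally housed libraries, and gained ones as few as 2 in the second enriched library. The lower share therefore follows from the limit and does not measure the balance at well-covered regions. The 70.7% of the whole list rests on the same unequal read numbers, so it describes the list and does not measure that balance either.

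Relative to input the regions moved the same way. The authors' deposited ratio to input was finite in both groups in 779 gained nuclear regions and moved up in 778 of them (99.9%), by at least 2-fold in 743. It was finite in 320 lost nuclear regions and moved down in 319 (99.7%), by at least 2-fold in 305. The median ratio in the authors' deposited table went from 0.440 to 3.24 at gained regions and from 2.88 to 0.280 at lost ones. In the group where H3.3 was higher, the count was at least 2 times input in 87.8% of gained and 74.1% of lost regions with finite ratios. The ratio holds the count that chose the region, so the listing favours this. Input was 0 in the normally housed group in 67 gained and 28 lost nuclear regions, which gives an infinite ratio there. In the enriched group it was 0 in 1 region. Median input was low, 2.36 normalised counts in the enriched and 2.63 in the normally housed group, with 1 input library each.

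Markers of glial cell types had few regions, and those of astrocytes were mostly lost. For comparison with this and the later lists, 586 of 37310 genes in vM1 had a region. The 37310 include genes that do not encode proteins, and 577 of the 628 regions with an assigned gene were at protein-coding genes. Of the 22380 protein-coding genes, 431 had a gene body region, promoter classes left out. The share over protein-coding genes was thus higher. Of 38 astrocyte genes 3 had a region, with 3 lost regions and 1 gained, and their median log2 fold change was -3.62 in the authors' deposited table, against 2.53 and 66.2% gained over all 628 regions with an assigned gene. Mertk encodes a receptor with which astrocytes and microglia engulf synapses and dead cells. Its intron fell from 7.58, 8.79 and 8.14 in the normally housed libraries to 0, 0 and 2.17 in the enriched. Nfia fell at both of its regions, from 7.58, 6.76 and 7.23 to 0, 0 and 1.63 at one intron and from 5.69, 6.08 and 7.23 to 0, 0 and 0.54 at the other. Every enriched library stood under 2 at each Nfia region and every normally housed library above 5. In the second enriched library 1 read weighs 2.64, so a value under 2 there can only be 0. That library had 0 reads in 259 of the 348 lost nuclear regions. Gpc5, a heparan sulfate proteoglycan of the cell surface, was gained, with 5.82, 5.28 and 4.88 in the enriched libraries, while all 3 normally housed values were listed at 0. The middle Gpc5 value rests on 2 reads.

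Microglial genes went both ways. P2ry12 encodes the purine receptor by which resting microglia sense ATP from damaged cells, and its region, which also lies within an intron of Med12l, fell from 7.58, 6.08 and 7.23 to 1.16, 0 and 1.08. C1qa encodes a chain of C1q, the complement protein that tags synapses for removal. A region 1152 bp past the 3′ end of C1qa rose from 0, 0.68 and 0.90 to 5.82, 7.93 and 5.42. These were the 2 of 35 microglial genes with a region. Qk, an RNA-binding protein needed for myelin, was the only one of 43 oligodendrocyte genes, and rose from 1.90, 0 and 1.81 to 6.98, 7.93 and 6.51. None of 40 endothelial and pericyte genes had a region.

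Among markers of neurons, 3 of 38 had regions and all 4 of these were gained, with a median log2 fold change of 3.50 in the authors' deposited table. Celf4, a regulator of splicing in neurons, rose at 2 introns, from 0, 0.68 and 1.81 to 6.98, 15.8 and 7.05 and from 0, 1.35 and 0.90 to 5.82, 7.93 and 6.51. The value of 15.8 in the second enriched library lay more than 2-fold above the others. Elavl2 encodes a neuronal RNA-binding protein and rose from 0.95, 0 and 0 to 5.82, 5.28 and 5.42. Stmn2, which binds tubulin in growing neurites, rose close to its start, 73 bp downstream, from 0, 1.35 and 0.90 to 5.82, 13.2 and 4.88. Whether neuronal nuclei were present in the sorted fraction was not tested. Of genes of neural stem cells, Msi2, which holds progenitors undifferentiated, rose from 0.95, 0 and 1.81 to 6.98, 7.93 and 4.88, and Numb, which is shared out unequally when progenitors divide, fell from 7.58, 8.11 and 7.23 to 1.16, 2.64 and 1.08. These were the 2 of 41 with a region.

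**Figure D2:**
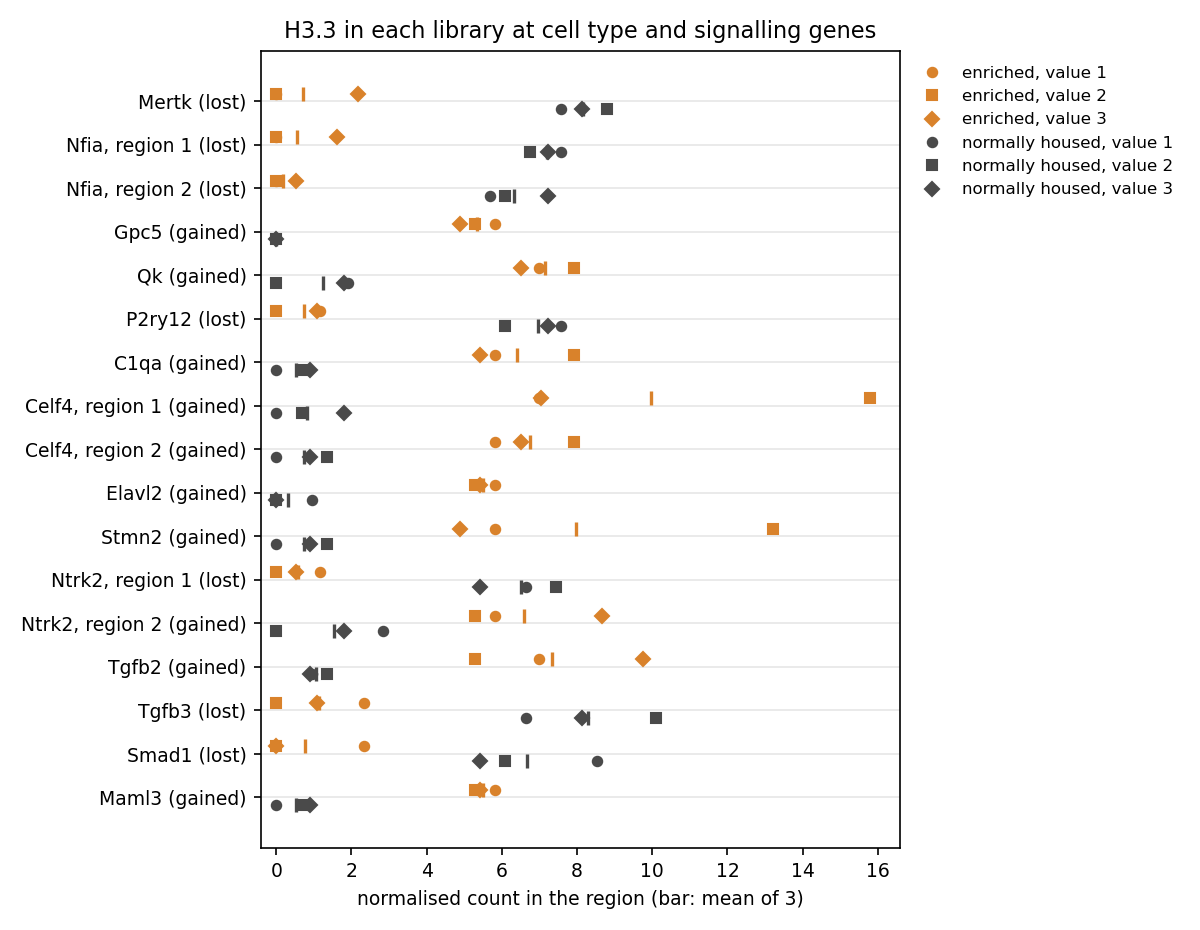
Normalised count of H3.3 in each of 3 enriched (orange) and 3 normally housed (grey) libraries at regions of cell type marker and signalling genes, bars marking means. Mertk, both Nfia regions and P2ry12 are near 0 in enriched libraries and above 5 in normally housed ones, and Qk, C1qa and Celf4 show the reverse.

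Growth factor signalling had 11 regions at 9 of 97 genes, 7 gained and 4 lost, with a median log2 fold change of 2.70 in the authors' deposited table. Ntrk2 encodes TrkB, the receptor of brain-derived neurotrophic factor, and held 1 lost and 1 gained region. The lost intron, shown above, went from 6.63, 7.43 and 5.43 to 1.16, 0 and 0.54. The gained region, which in vM1 lies in an untranslated stretch of a Ntrk2 transcript, went from 2.84, 0 and 1.81 to 5.82, 5.28 and 8.67. The distance of these regions from the assigned start was 45748 bp and 124239 bp. Sos2, which loads Ras with GTP after receptors are engaged, rose from 0.95, 0 and 0.90 to 5.82, 5.28 and 5.42. Rictor, the defining subunit of the mTOR complex that activates Akt, rose from 0, 0.68 and 0.90 to 5.82, 7.93 and 4.88. Only 2 of the 7 gained regions had 3 or more reads in every enriched library.

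Genes of the Notch, BMP and TGF-beta pathways were split evenly, with 4 gained and 4 lost regions at 8 of 75 genes. Tgfb2 and Tgfb3 encode ligands of the same receptors. Tgfb2 rose from 0.95, 1.35 and 0.90 to 6.98, 5.28 and 9.76 in an intron, while a region 1544 bp past the 3′ end of Tgfb3 fell from 6.63, 10.1 and 8.14 to 2.33, 0 and 1.08. Smad1 carries BMP signals to the nucleus and fell from 8.53, 6.08 and 5.43 to 2.33, 0 and 0. Maml3, a coactivator of Notch, rose from 0, 0.68 and 0.90 to 5.82, 5.28 and 5.42. Of 80 Wnt genes 2 had regions, both gained. Wnt9a, a ligand, rose from 0.95, 0 and 0.90 to 6.98, 5.28 and 5.42, and Prickle2, of the planar polarity branch, from 1.90, 0 and 0.90 to 6.98, 5.28 and 5.42. Both rest on 2 reads in the second enriched library.

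Synaptic genes, which astrocytes and oligodendrocyte precursors also express in part, held regions of both directions. Of 63 genes of transmitter release and the postsynaptic scaffold 10 had regions, 6 gained and 6 lost. Bsn encodes bassoon, a large scaffold of the site of transmitter release, and fell at both of its regions. A region 1906 bp before its 3′ end, in an untranslated stretch in vM1, went from 13.3, 10.1 and 9.95 to 2.33, 2.64 and 2.17, and an intron went from 8.53, 9.46 and 7.23 to 1.16, 2.64 and 1.08. Dlg2, a scaffold that anchors NMDA receptors, fell from 10.4, 9.46 and 8.14 to 0, 2.64 and 1.08. Sv2c, a synaptic vesicle protein, fell from 5.69, 6.08 and 6.33 to 0, 0 and 0.54. Erc1, a scaffold of the release site, rose from 0.95, 1.35 and 0 to 9.31, 5.28 and 5.96. Of the 6 gained regions of this list 1 had 3 or more reads in every enriched library.

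Adhesion molecules of the synapse had 17 regions at 15 of 71 genes, beside 586 genes with a region among 37310 in vM1. These shares take no account of gene length or gene type and were not tested. Protein-coding genes with a gene body region had a median vM1 length of 135500 bp, against 15420 bp over all protein-coding genes. Of the 17 regions 11 were gained (64.7%), against 66.2% of all regions with an assigned gene. Dscam, which lets neurites of 1 cell recognise each other, rose from 0.95, 0 and 0 to 12.8, 5.28 and 6.51. Odz3, a teneurin that joins cells across the cleft, fell from 9.48, 6.76 and 6.33 to 0, 0 and 1.63. Ptprt and Ptprm are receptor phosphatases that bind their own kind on the next cell. Ptprt fell from 6.63, 7.43 and 8.14 to 0, 0 and 1.08. Ptprm fell at one intron from 7.58, 6.08 and 6.33 to 1.16, 0 and 0 and rose at another from 0.95, 0 and 0 to 5.82, 5.28 and 5.42. Protein tyrosine phosphatases as a whole had 7 gained and 3 lost regions at 8 of 70 genes. Ptpn13 rose from 1.90, 1.35 and 0 to 12.8, 7.93 and 5.42. Eya4, of the eyes absent family, fell from 5.69, 6.08 and 7.23 to 1.16, 0 and 0.

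Cadherins and their partners had 6 gained and 3 lost regions at 8 of 79 genes. Cdh8, an adhesion molecule of excitatory synapses, rose at 2 introns, from 0, 0.68 and 0.90 to 5.82, 7.93 and 4.88 and from 1.90, 0.68 and 0 to 9.31, 5.28 and 5.42. Pcdh7 rose from 0, 2.70 and 0 to 8.14, 7.93 and 8.13. Celsr3, an atypical cadherin of axon tracts, fell from 5.69, 6.08 and 8.14 to 0, 0 and 1.08, and Ctnnd2, which holds cadherins at the membrane, from 10.4, 7.43 and 8.14 to 1.16, 0 and 1.08. Axon guidance genes had 4 gained regions and 1 lost at 5 of 78 genes. Dcc and Unc5c are receptors of the guidance cue netrin. Dcc rose from 0.95, 0.68 and 1.81 to 6.98, 10.6 and 5.96 and Unc5c from 0.95, 2.70 and 0.90 to 5.82, 5.28 and 9.76. Of the semaphorins, which mostly repel axons, Sema3f rose from 0.95, 2.03 and 0 to 5.82, 15.8 and 5.42 and Sema3a fell from 5.69, 8.11 and 9.04 to 0, 2.64 and 1.08.

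Receptors of transmitters were few. Grik2, a kainate receptor subunit that responds to glutamate, rose from 0.95, 0 and 0 to 8.14, 5.28 and 4.88, with 2 reads in the second enriched library. Of 31 GABA and glycine receptor genes, Gabrb1 rose from 0.95, 0.68 and 0.90 to 6.98, 7.93 and 6.51 and Gabrg3 fell from 5.69, 6.76 and 6.33 to 0, 0 and 1.08. Both encode subunits of the GABA-A receptor. Among receptors that couple to G proteins, 4 regions were gained and 2 lost at 6 of 226 genes. Bai1, with which phagocytes recognise dying cells, rose from 0, 0 and 2.71 to 5.82, 7.93 and 5.42, and Gpr39, a zinc sensor, from 0, 0.68 and 0.90 to 6.98, 5.28 and 5.42. Drd2, the D2 dopamine receptor, fell 568 bp downstream of its start, from 5.69, 6.08 and 5.43 to 0, 0 and 0.54.

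Signal carriers behind such receptors had 8 gained and 5 lost regions at 12 of 180 genes. Gnaq, the G protein subunit that activates phospholipase C, fell from 5.69, 8.11 and 9.04 to 0, 0 and 1.63, and Prkcb, a protein kinase C, from 6.63, 8.11 and 5.43 to 0, 2.64 and 0.54. Gng12, a G protein gamma subunit, rose from 0, 1.35 and 0.90 to 5.82, 5.28 and 7.05, and Dgki, which removes diacylglycerol, from 0.95, 0.68 and 1.81 to 9.31, 5.28 and 6.51. Regulators of small GTPases were split, with 8 gained and 7 lost regions at 14 of 188 genes. Arhgef4 rose from 1.90, 2.03 and 0 to 5.82, 21.1 and 5.42, with the second enriched library more than 3-fold above the others. Dock4, which activates Rac, rose from 1.90, 0.68 and 0 to 5.82, 7.93 and 7.05. Tbc1d24 fell 596 bp past its 3′ end, from 7.58, 6.08 and 5.43 to 1.16, 0 and 0. Sipa1l3 rose at one intron from 1.90, 0 and 0 to 5.82, 7.93 and 5.96 and fell at another from 6.63, 6.76 and 7.23 to 0, 2.64 and 0.54.

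Ion channels had 6 gained and 4 lost regions at 8 of 198 genes. Itpr1 encodes a channel that releases calcium from the endoplasmic reticulum, and Atp2a2 the SERCA pump that returns it. Itpr1 rose from 0, 0 and 0.90 to 5.82, 5.28 and 6.51. Atp2a2 rose from 0, 1.35 and 1.81 to 9.31, 5.28 and 5.96 and was the only one of 66 genes of connexins, aquaporins and ion pumps with a region. The potassium channel genes Kcnq1 and Kcnn2 each had a gained and a lost intron. Kcnq1 rose from 2.84, 0.68 and 1.81 to 11.6, 13.2 and 8.13 and fell from 5.69, 7.43 and 5.43 to 0, 0 and 1.08. Kcnn2 rose from 0.95, 0.68 and 0.90 to 6.98, 5.28 and 5.42 and fell from 5.69, 7.43 and 6.33 to 1.16, 0 and 0. Ano4, of the anoctamin family, rose from 0, 2.03 and 0 to 9.31, 5.28 and 6.51.

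Solute carriers, many of which glia use to move nutrients and ions, had 11 gained and 3 lost regions at 14 of 371 genes. Slc7a11 encodes the cystine and glutamate exchanger of astrocytes, and fell from 5.69, 6.76 and 7.23 to 0, 0 and 1.08. Slc12a8, of the cation and chloride cotransporter family, fell from 7.58, 6.08 and 9.95 to 2.33, 2.64 and 0. Slc14a1, a urea transporter, rose from 0, 1.35 and 0 to 6.98, 5.28 and 4.88, and Slc2a13, a myo-inositol transporter, from 0.95, 0 and 0.90 to 5.82, 5.28 and 5.42. Of the 11 gained regions of solute carriers 5 had 3 or more reads in every enriched library.

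Matrix genes had 8 gained and 5 lost regions at 13 of 216 genes. Adamts20, a protease of the matrix, rose from 0, 0.68 and 1.81 to 6.98, 13.2 and 4.88. Integrins, the receptors of the matrix, included Itgb6, which fell from 8.53, 8.79 and 7.23 to 1.16, 2.64 and 0.54, and Itgb4, which fell 274 bp downstream of the start of the assigned transcript from 6.63, 8.79 and 5.43 to 1.16, 0 and 0.54. Loxl2, which crosslinks collagen and overlaps the predicted gene Gm16867 at its region, had the highest nuclear group mean of any region with a named gene, with 10.5, 15.8 and 16.3 in enriched and 3.79, 2.03 and 7.23 in normally housed libraries. Set against input, the authors' deposited table gave 2.11 and 0.710.

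Regulators of chromatin had 8 gained and 6 lost regions at 14 of 352 genes. Crebbp encodes CBP, an acetyltransferase of histones that cells use for activity-dependent transcription, and fell from 5.69, 6.76 and 7.23 to 0, 0 and 1.08. Phc2, of the Polycomb complex, fell from 5.69, 6.08 and 7.23 to 0, 0 and 0.54. Sirt2 encodes a deacetylase that is abundant in myelin and fell 1777 bp downstream of its start, from 9.48, 6.76 and 7.23 to 1.16, 0 and 0.54. Phf17, part of a histone acetyltransferase complex, rose from 0.95, 2.03 and 1.81 to 10.5, 7.93 and 10.8. No gene of the immediate-early list (30 genes) or the housekeeping list (19 genes) had a region.

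Nuclear hormone receptors had 1 gained and 4 lost regions at 4 of 47 genes, with a median log2 fold change of -3.61 in the authors' deposited table. Esrrg, an orphan receptor of energy metabolism, fell at both of its introns, from 6.63, 6.08 and 5.43 to 0, 0 and 0.54 and from 5.69, 8.11 and 5.43 to 0, 0 and 0.54. Rora, a receptor of the circadian clock, fell from 6.63, 6.08 and 8.14 to 1.16, 0 and 0.54. Nr6a1 fell 310 bp past its 3′ end, from 5.69, 7.43 and 8.14 to 1.16, 2.64 and 0. The exception was Nr3c2, the mineralocorticoid receptor that binds corticosterone in the hippocampus, which rose from 0.95, 0.68 and 1.81 to 5.82, 5.28 and 8.13. Rora and Nr3c2 were also the 2 genes with a region among 32 of glucocorticoid response and the clock.

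Other transcription factors had 8 gained and 5 lost regions at 12 of 343 genes, and 1 of the gained regions had 3 or more reads in every enriched library. The list covers homeobox, SOX, FOX, basic helix-loop-helix, NFI and SMAD families and some factors outside them, among them Tcf20 and Atf6. Tcf20 rose from 0 in all 3 normally housed libraries to 8.14, 5.28 and 5.42. Bhlha9 rose 532 bp upstream of its start, from 0, 0 and 1.81 to 6.98, 5.28 and 5.96. Zinc finger proteins had 6 gained and 2 lost regions at 8 of 464 genes. This share was near the 586 of 37310 over genes of every type, which is lower than the share over protein-coding genes. Zfp521 and Zfp423 are related factors that act on progenitor fate. Zfp521 rose from 0, 0.68 and 0.90 to 5.82, 7.93 and 4.88 and Zfp423 fell from 9.48, 6.76 and 6.33 to 0, 0 and 1.63. Zfp341 rose from 1.90, 2.03 and 2.71 to 9.31, 7.93 and 10.8 and Zfp362 from 0, 0.68 and 0.90 to 5.82, 5.28 and 5.42.

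RNA-binding proteins had 10 gained and 2 lost regions at 11 of 247 genes, with a median log2 fold change of 3.04 in the authors' deposited table. Beside Celf4, Elavl2, Msi2 and Qk, the gained ones included Elavl1, which stabilises messenger RNA, 2658 bp before its 3′ end, with 0, 0.68 and 1.81 in normally housed and 5.82, 10.6 and 8.13 in enriched libraries. Rbm47 rose from 0.95, 0.68 and 0 to 8.14, 5.28 and 5.42. Rbm6, a splicing factor, fell from 5.69, 6.76 and 7.23 to 0, 0 and 0.54. Of the 10 gained regions 6 had 3 or more reads in every enriched library.

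Genes of motor proteins and of actin and microtubules had 10 gained and 2 lost regions at 9 of 231 genes. Abi2, a subunit of the WAVE complex that nucleates actin, rose from 0, 1.35 and 1.81 to 9.31, 7.93 and 7.05. Cttnbp2, which binds cortactin in dendritic spines, rose at an intron from 0.95, 0 and 0.90 to 6.98, 5.28 and 4.88 and, 710 bp before the 3′ end of another assigned transcript, from 0.95, 1.35 and 0.90 to 6.98, 5.28 and 7.05. Enah, which lengthens actin filaments at cell edges, accounted for both lost regions, from 7.58, 9.46 and 9.95 to 0, 5.28 and 2.17 and from 6.63, 6.08 and 7.23 to 0, 2.64 and 0.54. At the first Enah region the second enriched library held 5.28, which stands for 2 reads.

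Ubiquitin and SUMO genes had 11 gained and 3 lost regions at 13 of 483 genes. Ube2g1, a ubiquitin-conjugating enzyme, rose from 0, 0.68 and 0.90 to 6.98, 5.28 and 7.05. Rnf10, a RING finger protein, rose from 0.95, 0.68 and 0 to 5.82, 5.28 and 5.42. Otud7a, a deubiquitinase, rose at 2 introns, from 1.90, 0.68 and 0.90 to 6.98, 13.2 and 7.05 and from 0.95, 4.05 and 0 to 5.82, 18.5 and 4.88. At the second of these the enriched values spread from 4.88 to 18.5. A region 2655 bp past the 3′ end of Fbxl13 fell from 5.69, 7.43 and 7.23 to 0, 0 and 0.54, and in vM1 it lies in the neighbouring gene Fam185a.

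Lipid and cholesterol genes had 8 gained and 2 lost regions at 10 of 345 genes. Aloxe3, a lipoxygenase, rose from 0, 0.68 and 0 to 5.82, 10.6 and 4.88, and Lass3, a ceramide synthase, from 2.84, 0 and 0.90 to 10.5, 10.6 and 5.96. Agpat5, which makes phosphatidic acid, fell from 5.69, 6.08 and 7.23 to 0, 2.64 and 0. Its input was 0 in both groups. Ldlrad3 fell from 5.69, 6.08 and 7.23 to 1.16, 0 and 0.54.

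Immune and cytokine genes had 7 gained and 1 lost region at 8 of 491 genes. This share of genes was near that over genes of every type, 586 of 37310, of whose regions 66.2% were gained. Over protein-coding genes the share was higher, with 431 of 22380 holding a gene body region alone. The authors' promoter classes held 6 of these regions, and 4 lay within 3000 bp of the start of the assigned transcript when its strand was used. C3 rose from 1.90, 0 and 0 to 6.98, 7.93 and 5.96 at the region printed above. Il21r, a cytokine receptor, rose 2383 bp upstream of its start, from 1.90, 0 and 1.81 to 9.31, 5.28 and 6.51. Ripk4, a kinase, rose from 0, 0.68 and 0.90 to 6.98, 7.93 and 6.51. Ccr9, a chemokine receptor, was listed at 0 in all 3 enriched libraries and had 5.69, 6.08 and 7.23 in the normally housed ones. Olfactory and vomeronasal receptors, which are expressed chiefly in the nose, had 1 gained and 2 lost regions at 3 of 1682 genes. Vmn1r46 rose from 0, 1.35 and 0.90 to 8.14, 5.28 and 4.88, Olfr1053 fell from 7.58, 6.76 and 5.43 to 0, 0 and 0.54 and Olfr644 from 5.69, 6.08 and 5.43 to 0, 0 and 0.54. The Olfr1053 region lies 1010 bp past the 3′ end of the gene. The Olfr644 region lies 317 bp upstream of the assigned start, and in vM1 it is within the predicted gene 4930516K23Rik.

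**Figure D3:**
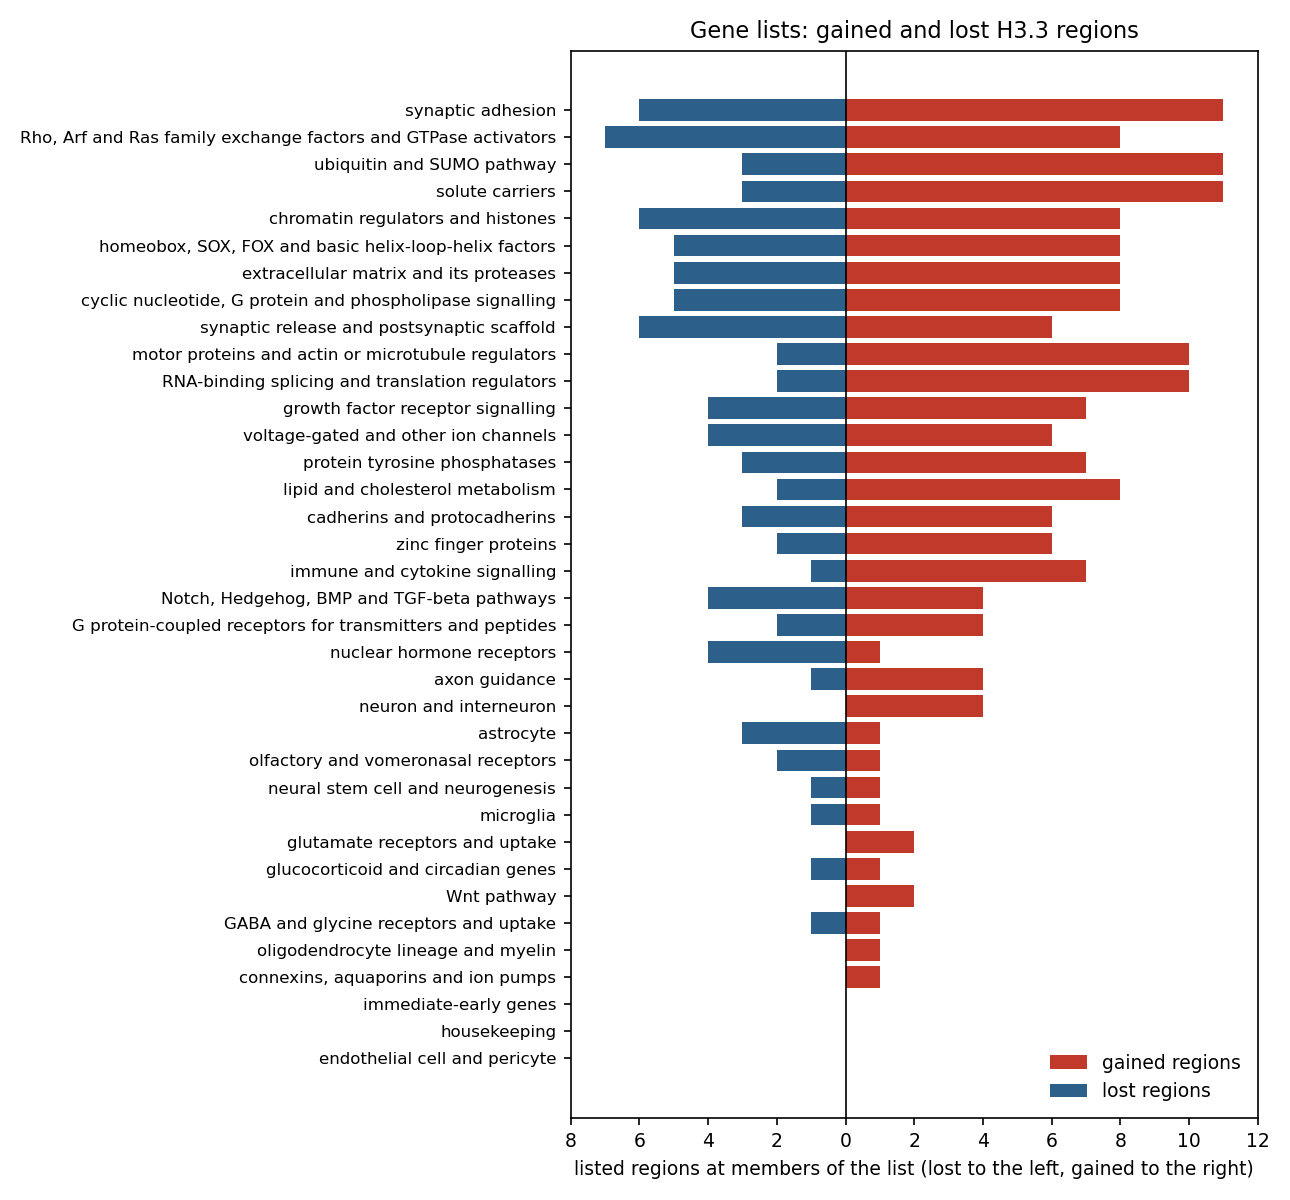
Number of gained regions (red, to the right) and lost regions (blue, to the left) at members of each of 36 gene lists. Synaptic adhesion has the most regions, nuclear hormone receptors and astrocyte genes have more lost than gained, and 3 lists have none.

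Read over all lists, 223 genes had a region and the direction was mixed in most. Among lists with 3 or more regions, the median log2 fold change in the authors' deposited table ran from -4.99 for olfactory and vomeronasal receptors (3 regions) to 3.50 for markers of neurons and interneurons (4 regions), against 2.53 for all regions with an assigned gene. No listed change was smaller than 1.59 in either direction. The median of a list therefore mainly shows which direction held more of its regions. No list was tested for an excess. Long genes offer more sequence in which a region can fall. The 431 protein-coding genes with a gene body region had a median vM1 length of 135500 bp, against 15420 bp over all 22380 protein-coding genes.

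Of the regions with the smallest adjusted p, some were at genes of none of these lists. Among gained regions, Fam98b, of a complex that acts in transfer RNA splicing, had a 360 bp region that rose from 1.90, 3.38 and 2.71 to 12.8, 13.2 and 14.6, with an adjusted p of 0.00201 in the authors' deposited table. Pard3b, a cell polarity protein, rose from 0, 1.35 and 1.81 to 9.31, 10.6 and 9.22. Epb4.1l4b, of the band 4.1 family, rose from 0.95, 0 and 0.90 to 8.14, 5.28 and 7.59. Among lost regions, Lpp, a protein of focal adhesions, fell from 9.48, 9.46 and 12.7 to 1.16, 0 and 1.08, with an adjusted p of 0.00201 in the authors' deposited table. Rac2, a GTPase of blood-derived cells and microglia, had 0 in all 3 enriched libraries and 6.63, 6.08 and 9.04 in normally housed ones, 2501 bp before its 3′ end. Clns1a, a chaperone of spliceosome assembly, had 0 in all 3 enriched libraries and 5.69, 6.76 and 6.33 in normally housed ones.

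The authors' promoter classes held 138 regions, 85 gained, 51 lost in the nuclear genome and 2 lost in the mitochondrial one. These classes measure from the lower coordinate of the assigned transcript in all 628 regions with a gene, which for the 306 on the minus strand is the 3′ end. Of the 138 regions 73 were on the plus strand, and of the 65 on the minus strand 18 lay within 3000 bp of the transcript's start. With the strand used, 112 regions lay within 3000 bp of the start of the assigned transcript, 69 gained and 43 lost. The distances given here were taken by strand. Among regions of plus-strand genes, Ndrg4, a gene of neurons and astrocytes, rose 790 bp upstream of the start of the assigned transcript, from 0, 0.68 and 0 to 5.82, 10.6 and 4.88. Chrna2, a nicotinic receptor subunit, rose 923 bp downstream, from 0.95, 1.35 and 0 to 6.98, 5.28 and 7.59. Chga, a protein of secretory granules, rose 1311 bp downstream, from 0.95, 1.35 and 1.81 to 6.98, 5.28 and 9.22. Sdcbp encodes syntenin, an adaptor of syndecans, and rose 588 bp upstream, from 0.95, 1.35 and 0 to 8.14, 5.28 and 8.13. Lost regions near the start of an assigned transcript included Ppm1h, a phosphatase, 1654 bp upstream, from 8.53, 6.76 and 5.43 to 0, 0 and 0.54. Another was Mmgt2, 2849 bp downstream, from 6.63, 6.76 and 8.14 to 0, 0 and 0.54. In vM1 the Ndrg4, Sdcbp and Ppm1h regions lie in introns within their genes, so upstream here refers to the assigned transcript only.

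Several genes had more than 1 region. Of the 586 genes with a region, 383 had only gained, 188 only lost and 15 both, and 36 had 2 or more. Dab1, the adaptor of reelin signalling, had 3 regions in introns. It rose from 0, 2.03 and 2.71 to 6.98, 10.6 and 9.22 and from 0, 1.35 and 0.90 to 6.98, 5.28 and 7.59, and fell between them from 8.53, 6.76 and 7.23 to 2.33, 0 and 0.54. The predicted gene Gm15710 had 3 gained regions. The authors' table gives Galnt2 6 regions, 4 gained and 2 lost, yet all 6 lie outside that gene as vM1 places it and inside the predicted gene Gm20388, so they are not counted as Galnt2 findings here. Of 490 gene body regions, 473 lay within the assigned gene in vM1 and 17 outside.

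Most regions were distal. By the vM1 annotation 3.07% of gained and 3.74% of lost nuclear regions had their centre within 1000 bp of a gene start, against 2.69% of tiles. Gene bodies held 43.9% of gained (interval 40.5 to 47.3%) and 52.9% of lost regions (47.5 to 58.2%), against 39.6% of tiles. Introns held the centres of 352 gained and 180 lost regions, and coding exons those of 12 and 5. Intergenic shares were 53.1% and 43.4%, against 57.7% of tiles. These shares were not tested against each other.

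**Figure D4:**
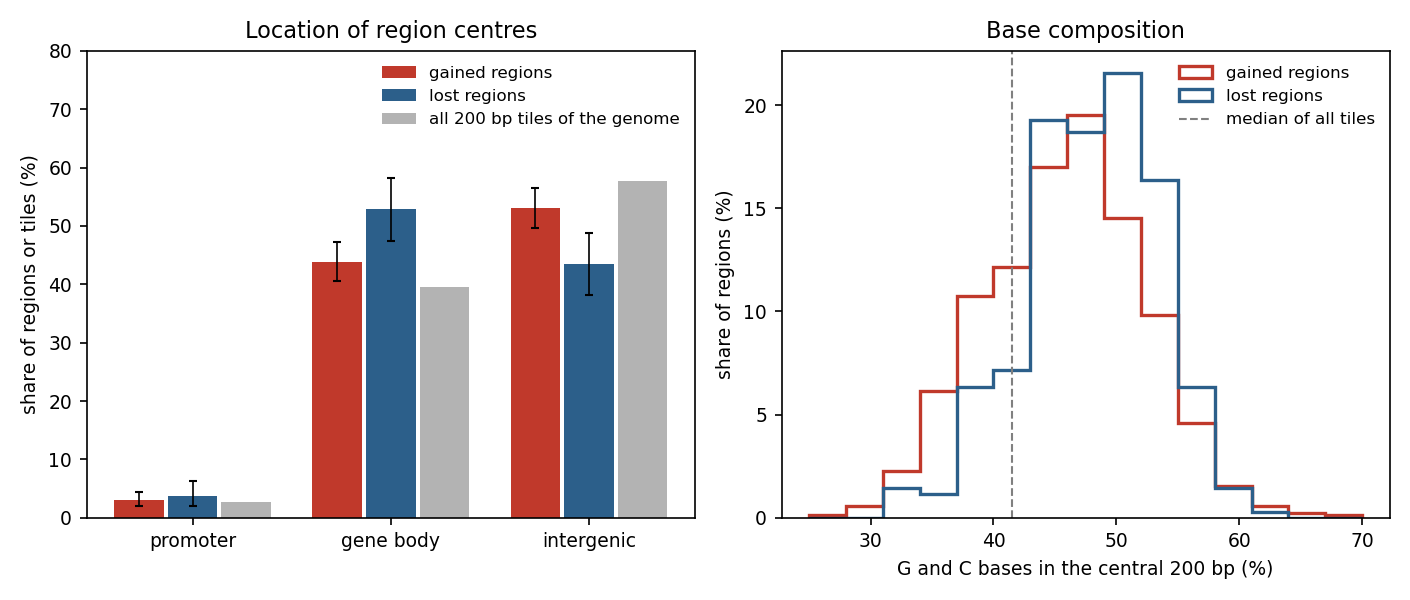
Left, share of gained (red) and lost (blue) nuclear regions with their centre at a promoter, in a gene body or between genes in vM1, with exact 95% intervals, and of all 200 bp tiles (grey). Right, share of regions by percent G and C in the central 200 bp, with medians of 46.0% for gained and 48.5% for lost regions and 41.5% for all tiles.

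Base composition differed between the directions. The central 200 bp held a median of 46.0% G and C in gained and 48.5% in lost regions, against 41.5% over all tiles. Of the regions with the lowest G and C content (26.5 to 44.0%) 80.3% were gained, of the middle ones 67.5% and of the highest ones (49.5 to 68.0%) 63.5%. No CpG was present in 25.3% of gained and 21.8% of lost regions, against 30.7% of tiles. What part the base composition of the libraries had in the direction was not tested.

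Chromosomes differed in the share gained, from 54.1% of 37 regions on chromosome 16 to 84.8% of 46 on chromosome 10. Chromosome 8 had the highest density, 6.89 regions per 10 Mb, with 51 gained and 35 lost. A single region, or 0.0836% of the list, lay on chromosome X, which holds 6.33% of tiles, and the list from NeuN-positive nuclei also had 1 there, of 1642. Why X was nearly empty was not tested.

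**Figure D5:**
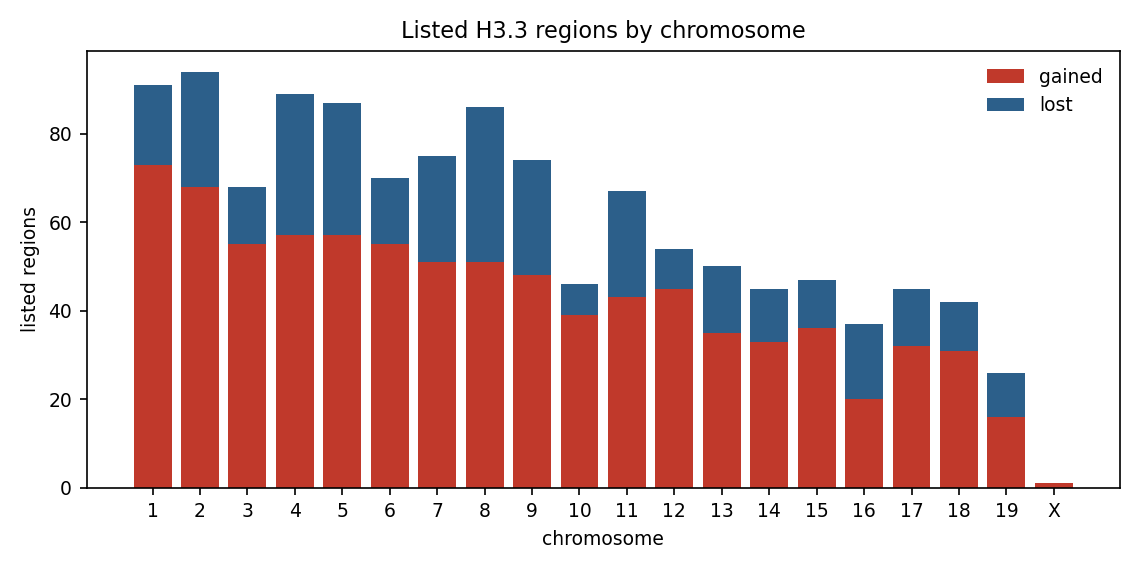
Number of gained (red) and lost (blue) listed regions on each autosome and on chromosome X. Chromosomes 1 and 2 hold 91 and 94 regions, chromosome 10 is 84.8% gained, chromosome 16 is 54.1% gained, and X holds 1 region.

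The mitochondrial genome gave 2 lost regions with by far the highest counts. Mitochondrial DNA is not wrapped in histones. A stretch of 5540 bp assigned to mt-Nd6 had 7617, 4915 and 4792 in normally housed and 1433, 2487 and 1842 in enriched libraries, a 3.01-fold difference of the means. A stretch of 940 bp assigned to mt-Nd3 had 139, 84.5 and 76.9 and 16.3, 39.6 and 30.9, a 3.46-fold difference. The input values implied by the authors' deposited ratios differed in the same direction, by 2.47-fold and 2.21-fold, and the ratios to input were 1.12 and 0.920 at mt-Nd6 and 1.11 and 0.710 at mt-Nd3. Normalised mitochondrial counts were thus lower in enriched mice in the ChIP and in the input, and their part in the other regions was not tested.

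The list of H3.3 regions from NeuN-positive nuclei, which are neurons, was made from other libraries, 2 per group, and held 1642 regions of which 71.8% were gained. Only 1 region of each list overlapped the other by at least 1 bp, 0.0836% of the NeuN-negative and 0.0609% of the NeuN-positive list. It lies between genes on chromosome 7 (14133561 to 14133760, mm9) and was gained in both, with 6.98, 5.28 and 5.42 against 1.90, 0.68 and 0 in NeuN-negative nuclei and 17.3 and 18.0 against 1.51 and 5.14 in NeuN-positive nuclei. Levels are not comparable between the lists. A second pair, near Grb2, an adaptor between receptors and Ras, lay 460 bp apart. There H3.3 rose in NeuN-negative nuclei from 0.95, 1.35 and 0.90 to 5.82, 7.93 and 7.05 and fell in NeuN-positive nuclei from 19.6 and 20.6 to 6.28 and 5.14.

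At the level of genes, 69 had a region in both lists, 11.8% of 586 and 8.19% of 843 genes, and the closest pair of regions of a gene lay a median of 61650 bp apart. Of the 63 with 1 direction in each list, 38 had the same direction and 25 the opposite. The 38 were 30 gained and 8 lost in both, and the 25 were 13 lost and 12 gained in NeuN-negative nuclei. Gained regions were 70.7% of the NeuN-negative and 71.8% of the NeuN-positive list, so matches and mismatches both arise without any link. Whether 25 differs from the number so arising was not tested. Nfia was lost at 2 regions in NeuN-negative nuclei and gained at 2 in NeuN-positive nuclei, from 7.53 and 6.16 to 25.1 and 21.4 and from 3.01 and 5.14 to 15.7 and 19.7. Itpr1 was gained in NeuN-negative nuclei and lost in NeuN-positive nuclei, from 18.1 and 23.6 to 6.28 and 6.85. Bsn was lost in both, in NeuN-positive nuclei from 28.6 and 19.5 to 6.28 and 7.71. Gpc5 and Kirrel3, an adhesion molecule, were gained in both. In NeuN-positive nuclei Gpc5 went from 3.01 and 4.11 to 18.1 and 18.0, and Kirrel3 from 4.52 and 4.11 to 18.1 and 18.0. Kirrel3 had 2 regions in NeuN-negative nuclei, from 0, 1.35 and 2.71 to 6.98, 10.6 and 7.59 and from 1.90, 1.35 and 0.90 to 9.31, 5.28 and 9.76. Tulp4 and Gfod1 were lost in both, and Adarb2, an RNA editing family member, was gained in both. In NeuN-negative nuclei Tulp4 fell from 5.69, 8.11 and 6.33 to 0, 0 and 0.54, Gfod1 fell from 5.69, 6.76 and 6.33 to 1.16, 0 and 0 and Adarb2 rose from 3.79, 2.03 and 0.90 to 15.1, 13.2 and 7.59. Plekha7, of adherens junctions, and Hs6st3, which modifies heparan sulfate, each had both directions over the 2 lists. Plekha7 rose in NeuN-negative nuclei from 1.90, 2.03 and 1.81 to 12.8, 13.2 and 8.13. Hs6st3 rose at one intron from 0.95, 1.35 and 0.90 to 8.14, 7.93 and 8.67 and fell at another from 5.69, 7.43 and 7.23 to 2.33, 0 and 0.54. A gene missing from a list was not shown to be unchanged there.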

How the data were processed

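The members are all regions of 1 deposited list, and the members, gene lists and motifs were chosen with earlier results of these data known. The submitters' processing notes name mm9 as the mouse build, with bedtools 2.16.2 and Bowtie 0.12.7 as tools. How regions were called is not described in any source used here, beyond the marks w200 and fc3 in the name of the list. All 1196 regions were at least 3-fold apart, and 755 were exactly 200 bp long. Per the file headers, each region carries the normalised read counts of 3 libraries per group, a coverage signal that the authors packed without library names. The authors also deposited group means divided by input (a ratio), a log2 fold change and a p-value with its adjusted form, all used as they stand. Normalisation was the authors' own and lies within the list. Because only called regions are listed, no test per region was run here and no set test was made, and p-values describe how the regions were chosen. The packed values averaged to the deposited means within 0.02 in 100% of regions.

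Whole reads were recovered from the smallest values (within 0.1 read for 100% of low values). Annotation was gencode vM1 on NCBIM37, the same build as mm9, read with pysam 0.24.0 and pandas 2.3.3. A promoter there is 1000 bp either side of a gene start. The start the authors deposited is the lower coordinate on both strands, so distances were recomputed by strand. Tiles of 200 bp over the genome gave the background for motifs, base composition and location. Genes were named by a rule, namely the smallest adjusted p in each direction, in each of 36 gene lists and in the authors' promoter classes, genes with 3 or more regions, genes shared with the NeuN-positive list, and the highest and widest regions, with predicted genes counted but not described. The step finder and the motif search were tested on simulated data. The result of 1 listed gene is not reported here.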

Additional observations from a re-analysis of the deposited data

Results flagged for a closer look

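Genes listed one way in NeuN-negative and the other way in NeuN-positive nuclei numbered 23, predicted genes left out, of which 12 were lost in NeuN-negative and gained in NeuN-positive nuclei and 11 were the reverse. With predicted genes counted, 25 of the 63 genes with 1 direction in each list were opposite and 38 were the same. Whether 25 differs from what unlinked lists give was not tested. The opposite direction is what drew attention to these 23 genes. That every library of one housing group lay above every library of the other sets none of them apart, since it holds for 100% of the regions of either list. The difference between the nuclei was not tested, the lists come from different libraries, and the regions of a gene lie at different places in it. Those lost in NeuN-negative nuclei included Nfia, Esrrg, Gabrg3, Odz3, Dab2ip, which restrains Ras, and Itga9, an integrin. Esrrg went from 3.01 and 8.22 to 18.8 and 20.6 in NeuN-positive nuclei, with an adjusted p of 0.0587 in the authors' deposited table, above the threshold of 0.05 that the other 22 genes met there. Gabrg3 went from 6.02 and 6.16 to 19.6 and 24.0 and Odz3 from 4.52 and 7.19 to 19.6 and 25.7. Those gained in NeuN-negative nuclei included Itpr1, Grb2, Erc1, Nrxn3, a presynaptic adhesion molecule, and Fbn1, of matrix fibrils. Erc1 went from 24.1 and 18.5 to 5.49 and 7.71 in NeuN-positive nuclei and Nrxn3 from 22.6 and 19.5 to 5.49 and 5.99.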

How the results depend on the processing

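Of 40 alternative values 33 lay within the exact interval of a reported share or within 1.5 times a reported count. Of these, 12 leave-one-out values could not have differed: the groups overlap in no listed region, so leave-one-out of a packed value must give 70.7% gained and 1196 regions apart. The 223 genes counted over all regions with an assigned gene were fixed too, since each such region is in a promoter or gene body class. Nor could all 1196 listed regions, in place of the 1194 at the adjusted p threshold, leave the tolerance. The share of gained regions was 70.5 to 70.9% with the ratio to input required to move by at least 2-fold, with regions over 200 bp, with merging within 1000 bp and on autosomes. Merging left 1194 regions and the autosomes held 1193, so neither share could leave the interval. The ratio to input holds the count that chose the regions. The share gained was 56.2% where every library of the higher group had at least 3 reads, a limit chosen after seeing the data. The limit was set because 1 read weighs 2.64 in the second enriched library. The count of gained regions then fell from 846 to 450, by over 1.5 times. All 350 lost regions met the limit, so it could only lower the share gained. With 0.01 as threshold on the authors' adjusted p, 817 gained and 346 lost regions passed. Without any 1 value, 1186 to 1193 of the 1196 regions were still at least 3-fold apart. With every value kept all 1196 were, so this distance was a property of being listed. The same values chose the regions, and the count is no independent check. A gap of 1.5-fold or more between groups was present in 1174. The share that moved with the ratio to input was 94.1% when regions with an input of 0 were counted and 95.2% for moves of at least 2-fold. The authors' classes put 11.5% of regions at promoters and 41.0% in gene bodies. By vM1, with promoters of 1000 bp either side, it was 3.43% and 46.4%. With the start of the assigned transcript taken by strand, an alternative added after seeing the data, 9.36% were at promoters. Within 1000 bp, 2 regions met the NeuN-positive list in place of 1. Genes with a region in any list numbered 223, and 187 with a 2-fold move relative to input, 151 with at least 3 reads throughout. No paired analysis was possible because the packed values carry no library names and no test was run.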

Other observations

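Regions far from genes were more often gained than the rest. The authors' classes put 568 regions between genes, of which 430 (75.7%) were gained, and 152 of these in gene deserts, of which 127 (83.6%) were gained, against 66.2% of regions with an assigned gene. The difference was not tested. The following 3 regions were chosen after their values were seen. The intergenic region with the highest mean, on chromosome 17 (60335781 to 60336060, mm9), had 10.5, 23.8 and 7.05 in enriched and 2.84, 2.03 and 0.90 in normally housed libraries. The widest, 360 bp on chromosome 6 (9344901 to 9345260), lay 146048 bp from Nxph1, which encodes a ligand of neurexins, and went from 0, 1.35 and 2.71 to 14.0, 7.93 and 10.8. The highest lost one, on chromosome 12 (52659521 to 52659780), lay 34711 bp from Coch and went from 8.53, 10.8 and 9.95 to 1.16, 0 and 2.17.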
